A study of Arabidopsis thaliana with 18 samples.

Results

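CYP78A9 (AT3G61880) is a cytochrome P450 gene of Arabidopsis thaliana, and it was followed here through 3 stages of seed development in the accessions C24 and Col-0. Its probe set was found through the gene table of the array platform. It was the only probe set listed for the gene and 1 of 22746 probe sets measured. The gene lies on chromosome 3 at 22905867-22907958 of the assembly TAIR10.1, a span of 2092 bp. The gene was chosen by its measured change in signal with stage, which was steep in Col-0, so its stage changes are described with no test. The Col-0 arrays behind that choice also form 1 side of each accession difference, so the choice itself favours a higher value in C24 at 8-9 d and a lower one later. The accession differences of CYP78A9 are therefore given with no p-value.

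Seeds of C24 and of Col-0, the accession of the reference genome, were taken 8-9, 10-11 and 12-13 days (d) after flowers opened, giving 6 groups of 3 arrays. Each array measured a pool of seeds from 48 siliques (seed pods), 8 from each of 6 plants of 2 experiments, grown with 16 h of light. Plants may have contributed to several pools of a group, so the p-values measure only the spread between pools. The design compares the accessions at each stage and the stages within each accession. Accession was taken from the sample titles, and the descriptions and characteristics match them. In all 18 samples, however, the source name states the opposite accession, so the direction of every accession difference below rests on the titles.

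Cytochrome P450 enzymes are haem proteins that insert an oxygen atom into small molecules. The CYP78A family is found in plants, and its Arabidopsis members promote the growth of organs. Overexpression of CYP78A9 gives large fruits and seeds, and with CYP78A6 the gene acts from maternal tissue, the integuments that become the seed coat, on seed size. The substrate of the enzyme is not settled.

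Signals are log2 values, so 1 unit is a 2-fold difference. In C24 seeds at 8-9 d the CYP78A9 signal was 5.44, 5.48 and 5.61 in the 3 pools. At 10-11 d the C24 pools gave 8.68, 8.96 and 9.05, and at 12-13 d they gave 11.13, 11.06 and 11.15. Every C24 pool thus lay above every C24 pool of an earlier stage.

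In Col-0 seeds at 8-9 d the pools gave 4.54, 4.84 and 4.59. At 10-11 d they gave 10.77, 10.27 and 11.07, and at 12-13 d they gave 12.75, 12.65 and 12.64. The Col-0 pools were likewise separated by stage, with the widest gap between 8-9 and 10-11 d. Over all probe sets and arrays, the 25th percentile of the signal was 4.32, the median 5.88 and the 99th percentile 11.57. The signal of CYP78A9 therefore crossed most of the range of the scale, and RMA, the authors' summary method, compresses differences at both ends of it.

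**Figure D1:**
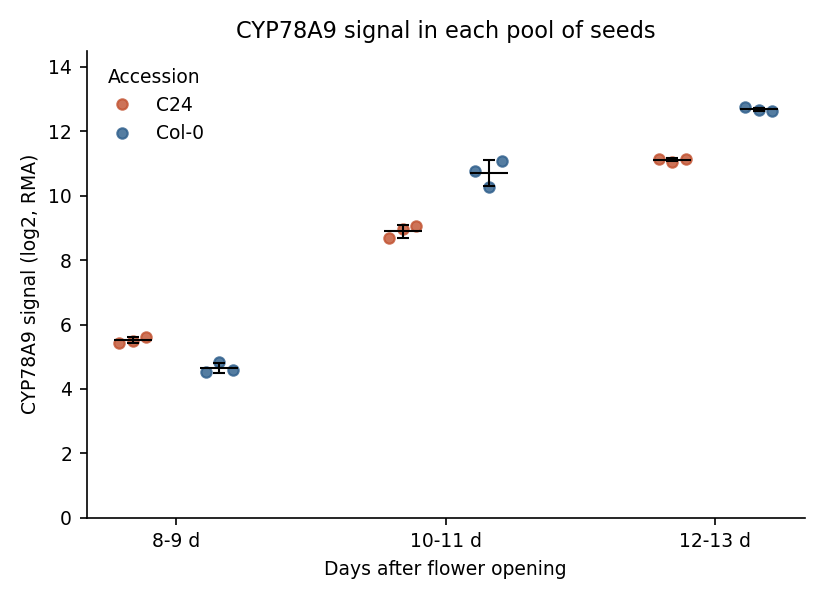
Log2 signal of CYP78A9 (vertical axis) on each of the 18 arrays by accession and stage, with the mean and SD of each group of 3. The signal is higher at each later stage in both accessions, and C24 lies above Col-0 at 8-9 d and below it at 10-11 and 12-13 d.

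The group means in C24 were 5.51 ± 0.09 at 8-9 d, 8.90 ± 0.19 at 10-11 d and 11.11 ± 0.05 at 12-13 d (SD, n = 3). In Col-0 they were 4.65 ± 0.16, 10.70 ± 0.40 and 12.68 ± 0.06 (SD, n = 3). From high to low, the order was Col-0 at 12-13 d, C24 at 12-13 d, Col-0 at 10-11 d, C24 at 10-11 d, C24 at 8-9 d and Col-0 at 8-9 d. Among neighbours in this order, C24 at 12-13 d and Col-0 at 10-11 d overlapped, since the highest Col-0 pool (11.07) was just above the lowest C24 pool (11.06). The other neighbours did not overlap. The spread in Col-0 at 10-11 d was wide for this data set, since 0.484% of probe sets had a larger SD in that group.

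At 8-9 d CYP78A9 was higher in C24 than in Col-0, and at both later stages it was lower. The difference of C24 minus Col-0 at 8-9 d was 0.86 (SE 0.14), a signal 1.81-fold higher in C24. At 10-11 d it was -1.81 (SE 0.14), 3.50-fold lower in C24. At 12-13 d it was -1.57 (SE 0.14), 2.97-fold lower in C24. The 3 pools of each accession did not overlap at any of the stages.

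Accession differences were common among all probe sets. With limma and Benjamini-Hochberg adjustment, 19.4% of probe sets were called at 8-9 d, 17.9% at 10-11 d and 22% at 12-13 d, a call being an adjusted p under 0.05. Groups without overlap were seen in 33.8%, 35.3% and 34.1% of probe sets at the 3 stages. By size of the difference CYP78A9 ranked 675 at 8-9 d, 117 at 10-11 d and 159 at 12-13 d, so that 2.96%, 0.51% and 0.695% of probe sets differed more. Whether C24 differs from Col-0 in the probed stretch of the gene was not examined.

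Among the other probe sets, few had a called difference that turned round in this way. C24 was called higher at 8-9 d and lower at both later stages in 21 of them, and 20 of 22746 probe sets (0.0879%) did the opposite. The choice of CYP78A9 favoured such a turn, so it is set beside the 21 as a description and not as a call. Counted with them, CYP78A9 had the lowest difference at 10-11 d, where the next was -1.56 and the median -0.64. It ranked 4 at 8-9 d, where the median was 0.54, and 5 from the lowest at 12-13 d, where the median was -0.97. Among the 21, named after their values were seen, were EXPA9, an expansin that loosens cell walls, and AMY1, an alpha-amylase. EXPA9 differed by 0.61, -0.48 and -1.29 at the 3 stages and AMY1 by 0.64, -0.53 and -0.76.

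The increase over the whole course was among the steepest of all probe sets in both accessions. In C24 the signal at 12-13 d was 5.60 above that at 8-9 d (SE 0.14), or 48.5-fold, which ranked 44 of 22746. In Col-0 it was 8.03 above (SE 0.14), or 260.8-fold, which ranked 9. The Col-0 level at 12-13 d was above the 99th percentile of signals and that at 8-9 d was low, and compression by RMA at both ends makes this fold and rank inexact. The increase in C24 was 69.8% of that in Col-0 on the log2 scale. The 8 probe sets that outranked CYP78A9 in Col-0 also outranked it in C24, and those with 1 listed gene were AT1G19900, AT3G60730 and AT4G38080.

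The accessions differed in when the increase came. In C24 the signal at 10-11 d was 3.38 above that at 8-9 d (10.4-fold, rank 90), and at 12-13 d it was 2.22 above that at 10-11 d (4.64-fold, rank 40). In Col-0 these steps were 6.05 (66.2-fold, rank 16) and 1.98 (3.94-fold, rank 82), each with an SE of 0.14. The first step thus held 60.4% of the increase in C24 and 75.4% of that in Col-0. Later groups lay wholly above earlier ones in 26.4%, 17% and 30.9% of probe sets for the first step, the second step and the whole course in C24, and in 22.9%, 20.8% and 28.3% in Col-0. As the choice of the gene rested on its stage change, nothing is read from its place among these.

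**Figure D2:**
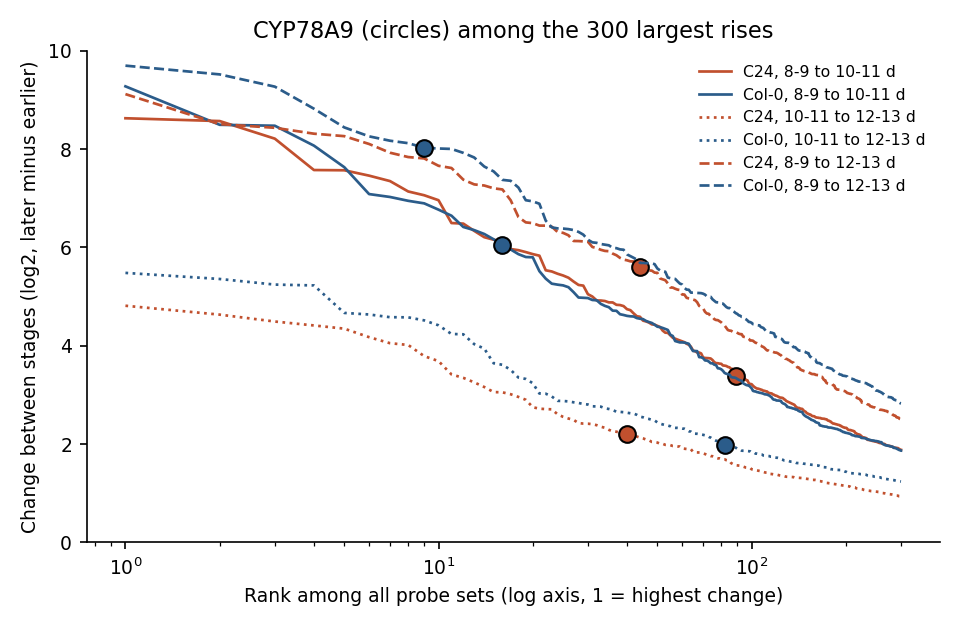
Log2 change between stages (vertical axis) against rank among 22746 probe sets (log axis, 1 being the largest increase), drawn for the highest ranked as 1 line for each step and the whole course, with circles for CYP78A9 in C24 and Col-0. C24 ranks 90, 40 and 44 and Col-0 ranks 16, 82 and 9 for the first step, the second step and the whole course.

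Genes ranked around CYP78A9 differed by step. In the first step of Col-0 the probe sets with 1 gene ranked highest were AT4G38080 (8.49), AT1G19900 (7.63), AT2G22510 (6.90), AT1G68850 (6.77) and AT3G60730 (6.64), and the next below CYP78A9 was AT2G23540 (5.96). The same 5 loci led the first step of C24, with log2 changes between 6.96 and 8.63. The second step was led by other loci in both accessions, among them FACT, which joins caffeic acid to fatty alcohols, at 4.35 in C24 and 5.24 in Col-0. BGLU19, a beta glucosidase, was among the 5 highest in the second step of Col-0 at 4.64.

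The first step of CYP78A9 was smaller in C24, with a difference of changes of -2.67 (SE 0.20) that ranked 8 from the lowest of all probe sets. The second step differed by 0.24 (SE 0.20), and 32.6% of probe sets had a larger difference in size. Over the whole course the difference was -2.43 (SE 0.20), which ranked 27 from the lowest. These values follow from the accession differences above and carry no test. Of the 7 probe sets with a lower value in the first step, those with 1 gene were AT1G62210, which changed by 0.66 in C24 and 4.93 in Col-0, and AT5G41250, which changed by -3.00 in C24 and 0.00 in Col-0. Another 26 probe sets gained at least 5 in the first step of Col-0, a limit chosen after the values were seen. Their median change was 6.27 in C24 and 6.31 in Col-0, and 1 of them, at 2.34 in C24, changed there by no more than CYP78A9 did.

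**Figure D3:**
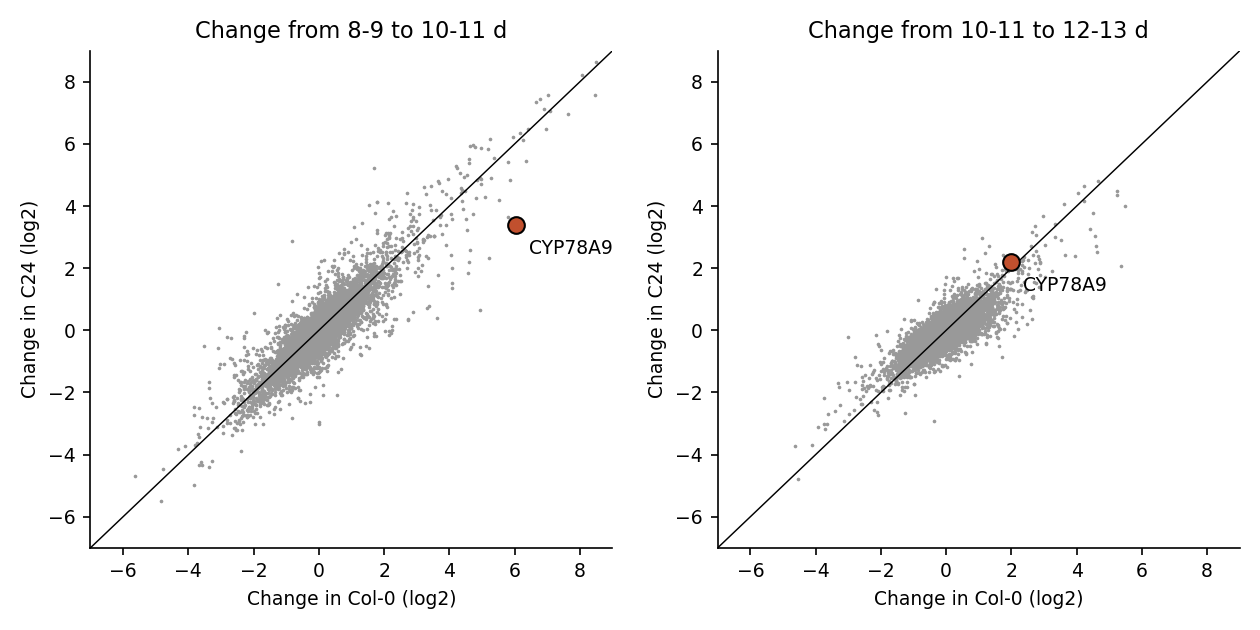
Log2 change in C24 (vertical) against Col-0 (horizontal) for all probe sets, from 8-9 to 10-11 d (left) and from 10-11 to 12-13 d (right), with a line of equal change and CYP78A9 marked. In the left panel, where CYP78A9 is at 3.38 in C24 and 6.05 in Col-0, the 26 other probe sets at 5 or more in Col-0 have a median of 6.27 in C24, and in the right panel CYP78A9 lies near the line.

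The genes whose profile was most like that of CYP78A9 were ranked by the root mean square (RMS) difference of the 6 group means, each gene centred on its own mean, and only probe sets with 1 listed gene are named. The closest was AT3G15670 with an RMS of 0.81, followed by AT5G47635, AT5G37690 and AT2G43880 at 0.84 each. The others of the closest 10 were AT5G45690, AT2G23540, AT3G56350, AT2G47200, AGL67, a MADS-box gene, and AT2G47120, at 0.93 to 1.07. Among all probe sets, 7 without a single listed gene lay closer than the last of these. The median over all other probe sets was 2.93, and 0 probe sets lay within 0.5. No profile was therefore a close match by this measure, which counts the size of the changes. The choice of a steeply changing gene itself makes close matches few. By correlation over the 6 group means, the 10 named genes reached 0.93 to 0.97.

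The closest genes gained in both steps but did not share the timing of CYP78A9. AT3G15670 changed by 4.16 and then 2.26 in C24 and by 4.38 and then 2.51 in Col-0. AT3G56350 changed by 4.21 and then 1.27 in C24, and by 5.52 and then 1.86 in Col-0. Of the 10 genes, 5 had a smaller first step in C24 than in Col-0. Among the 873 probe sets with at least a 2-fold first step in Col-0, 533 (61.1%) did. Of the 10, 6 had a higher mean in C24 at 8-9 d, 2 had a lower mean in C24 at 10-11 d and 7 had a lower mean in C24 at 12-13 d.

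**Figure D4:**
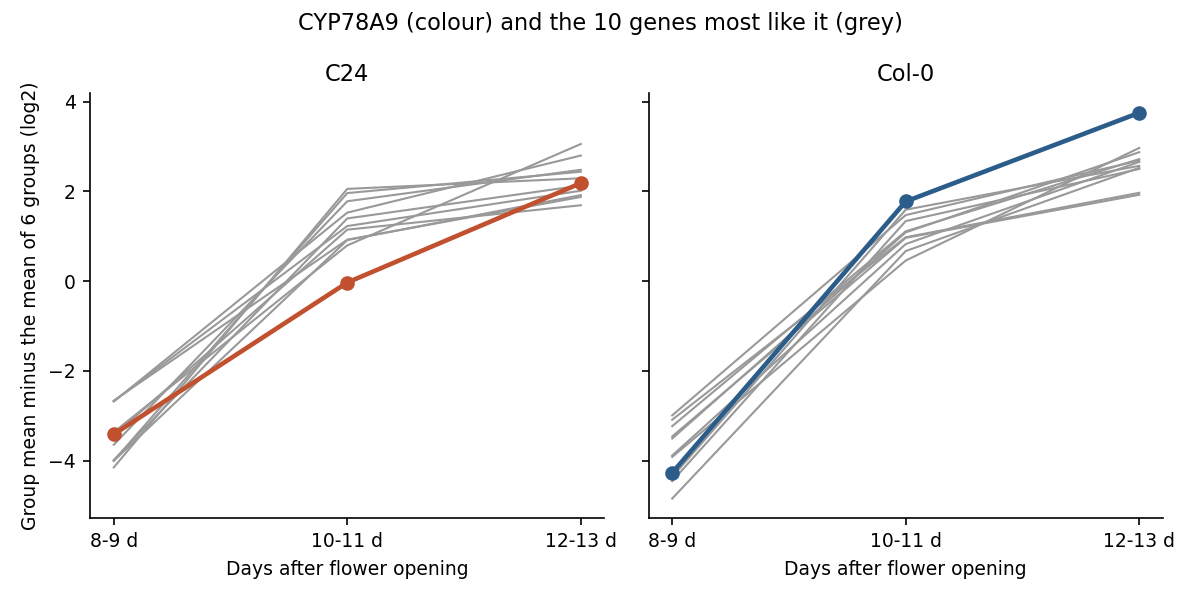
Group means by stage, each gene centred on its own mean (log2, vertical axis), for CYP78A9 and the 10 genes with the smallest RMS difference, in C24 and Col-0. All increase with stage, and the C24 value of CYP78A9 at 10-11 d is low against the others.

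Other genes with a cytochrome P450 symbol did not move as CYP78A9 did. The platform table gives such a symbol to 23 others, mostly of the CYP71B subfamily. P450 genes listed under another name are left out. Several of the 23, such as CYP71B31 and CYP71B36, had group means below 4.32, the 25th percentile of all signals, in every group. CYP78A9 is the only one of 6 CYP78A loci with a listed probe set, so the other family members were not analysed here. From 8-9 to 12-13 d 7 of the 23 rose and 3 fell in C24, where calls over all probe sets were 26.2% higher and 27.5% lower. In Col-0 7 rose and 4 fell, against 26.6% and 27.6% of all probe sets. The median change was 0.16 in C24 and 0.06 in Col-0, beside 0.04 and 0.02 over all probe sets. Scaled to 7 reference genes, 11 rose and 3 fell in C24, where 29.1% of all probe sets rose and 25.6% fell. In Col-0 11 rose and 2 fell, where 46.1% of all probe sets rose and 20.5% fell. The Col-0 count of rises was thus near the share over all probe sets. That scaling shifted all probe sets by 0.04 in C24 and 0.18 in Col-0, and the share of higher signals among all calls was then 53.3% against 48.8% in C24 and 69.3% against 49.1% in Col-0. Of the 7 reference genes, 2 were themselves called lower in Col-0 over the whole course, GAPC2 at -0.69 and AT4G26410 at -0.67. In C24 1 of the 7 was called lower. The calls that this scaling gained or lost carry that limit.

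Among these genes CYP71B37 had the next largest rise. Its signal in C24 was 5.73 ± 0.47, 8.01 ± 0.24 and 8.95 ± 0.10 at the 3 stages, and in Col-0 it was 5.22 ± 0.05, 7.58 ± 0.26 and 8.60 ± 0.20 (SD, n = 3). It rose by 3.22 in C24 (limma adjusted p = 1.24e-12) and by 3.38 in Col-0 (limma adjusted p = 4.53e-13). CYP71B35 rose by 0.84 in C24 and by 0.69 in Col-0, and CYP71B34 by 1.07 in C24 and by 0.41 in Col-0. The change of CYP71B34 differed between the accessions in the limma interaction (0.66, adjusted p = 0.0171), as the only 1 of the 23, where calls over all probe sets were 3.96% higher and 5.19% lower. CYP71B28 fell by 0.96 in C24 and by 0.57 in Col-0, CYP71B5 by 0.89 in C24 and 0.48 in Col-0, and CYP71B6 by 0.53 in C24 and 0.59 in Col-0. The Col-0 call of CYP71B5 was lost with scaling to the reference genes (limma adjusted p = 0.0759). The largest change among the 23, 3.38, was below the changes of CYP78A9.

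Between the accessions, few of the 23 were called at a stage. At 8-9 d 1 was higher in C24 and 1 lower, against 11.7% and 7.7% of all probe sets. At 10-11 d 1 was higher and 1 lower, against 9.92% and 7.99%, and at 12-13 d 2 were higher and 1 lower, against 12.2% and 9.79%. The gene lower in C24 was CYP71B26 at each stage, named after its values were seen, at -1.15, -0.78 and -0.60. CYP71B37 was the gene higher at 8-9 d, by 0.51 (limma adjusted p = 0.0467), a call that was lost with scaling to the reference genes (limma adjusted p = 0.0627). CYP71B34 was higher at 10-11 d by 0.73 and at 12-13 d by 0.57, and CYP71B35 at 12-13 d by 0.52, the last a call that was also lost with the scaling (limma adjusted p = 0.0597). With that scaling, 1 was higher and 4 were lower at 12-13 d, against 5.32% and 22.4% of all probe sets, and the share of higher signals among all calls was 19.2% against 55.5%. At 10-11 d that share was 43.3% against 55.4%.

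**Figure D5:**
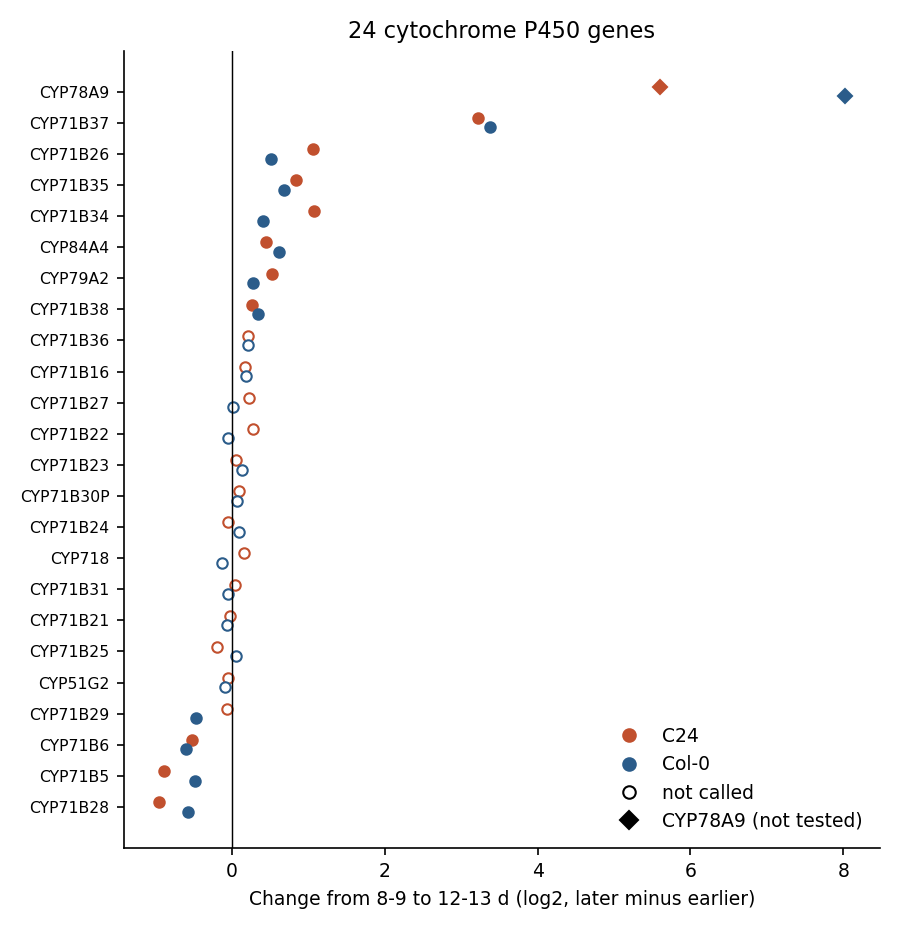
Log2 change from 8-9 to 12-13 d of the 24 genes listed with a cytochrome P450 symbol, in C24 and Col-0, with filled circles for calls, open circles for genes not called and diamonds for CYP78A9, which was not tested. CYP78A9 is highest at 5.60 in C24 and 8.03 in Col-0, followed by CYP71B37 at 3.22 and 3.38.

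Known regulators of seed and organ size changed by less than 1 log2 unit. Listed probe sets measured 6 of 26 such loci. From 8-9 to 12-13 d 4 of the 6 rose in C24 and 3 in Col-0, and 0 fell in either, beside 26.2% of all probe sets that rose in C24 and 26.6% in Col-0. The median change was 0.30 in C24 and 0.19 in Col-0. AT4G36860 rose by 0.55 in C24 and 0.79 in Col-0, and AT3G11580 by 0.32 in C24 and 0.49 in Col-0. AT3G11580, IKU2 and SHB1 had group means between 3.61 and 4.49, near the floor, and IKU2 is also counted among the endosperm markers. IKU1, which promotes endosperm growth, rose by 0.39 in C24 and by 0.25 in Col-0 (limma adjusted p = 0.0261). The Col-0 call of IKU1 was lost in 4 alternatives, with limma adjusted p of 0.0725 to 0.108, and the Col-0 count was then 2. UBP15, a ubiquitin-specific protease, rose by 0.27 in C24 (limma adjusted p = 0.0306) and was 0.14 in Col-0 (limma adjusted p = 0.255). The count in C24 was 2 without replicate 2 of C24 at 8-9 d.

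Of 9 loci listed as possible P450 electron donors, only AT3G02280 was measured. Whether AT3G02280 passes electrons to CYP78A9 or any other P450 was not examined. AT3G02280 rose by 0.37 in C24 (limma adjusted p = 0.00517) and by 0.84 in Col-0 (limma adjusted p = 4.65e-07). It was higher in C24 at 8-9 d by 0.54 (limma adjusted p = 0.000657). Lists of 20 brassinosteroid loci and of 26 suberin and omega-oxidation loci had no member in the platform table and were not analysed here.

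Of the 5 genes on each side of CYP78A9, 2 had a listed probe set. AT3G61870 lies 1730 bp away on chromosome 3 at 22902491-22904137 and went the other way with stage. Its signal in C24 was 8.45 ± 0.03, 7.95 ± 0.11 and 7.61 ± 0.01 at the 3 stages, and in Col-0 it was 8.27 ± 0.16, 7.60 ± 0.18 and 6.71 ± 0.19 (SD, n = 3). It fell by 0.85 in C24 (limma adjusted p = 8.16e-07) and fell by 1.56 in Col-0 (limma adjusted p = 4.96e-11). AT3G61840, 12563 bp away, was 0.15 in C24 and 0.14 in Col-0 and was not called, but in Col-0 it was called at 0.33 with scaling to the reference genes.

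Some of the measured tissue markers changed over the same stages and others did not. The 4 measured of 16 seed coat markers all fell in both accessions, where 27.5% of all probe sets fell in C24 and 27.6% in Col-0. In C24 minus Col-0, 3 of the 4 were lower at 8-9 d (7.7% of all probe sets), 0 were called by limma at 10-11 d (2 at an unadjusted p under 0.05), and BAN was higher at 12-13 d by 0.74. Their mean log2 signal per array ranged over 9.69-10.03, 8.08-8.22 and 7.80-7.92 in C24 at the 3 stages, and over 10.73-10.81, 8.26-8.54 and 7.60-7.87 in Col-0. With stage, the seed coat markers therefore ran opposite to CYP78A9. Between the accessions this did not hold throughout. Their median in C24 minus Col-0 was -0.74, -0.26 and -0.01 at the 3 stages, so at 10-11 d it was lower, as was CYP78A9. Of 3 measured storage and oil body markers, AT1G03890 and PAP85 rose in both accessions, against 26.2% of all probe sets in C24 and 26.6% in Col-0. OLEO3 was -0.05 in C24 and fell by 0.35 in Col-0, a call that was lost with scaling to the reference genes. With quantile normalization repeated, OLEO3 was called lower in C24 at -0.32 (limma adjusted p = 0.000995). In C24 minus Col-0, 2 of these 3 were called higher at 8-9 d, with a median of 0.39, where 11.7% of all probe sets were. At 10-11 and 12-13 d 1 was called higher, against 9.92% and 12.2%, and 0 were called lower at any stage. The 3 endosperm markers measured had group means of 3.26 to 4.49, near the floor, and 0 were called by limma over the whole course in either accession, with 0 at an unadjusted p under 0.05. Of the measured silique wall markers, with group means between 5.52 and 7.82, ALC fell by 0.58 in C24 and was -0.33 in Col-0, where it was not called. YAB3 rose by 0.55 in C24 and by 0.27 in Col-0, and it was higher in C24 at 12-13 d by 0.45. The Col-0 rise of YAB3 lost its call without any replicate of Col-0 at 8-9 d, or replicate 1 or 2 at 12-13 d. With only the groups compared it was lost too, and the limma adjusted p ranged from 0.0518 to 0.246. ALC lost its C24 call without replicate 1 of C24 at 8-9 d (limma adjusted p = 0.0587). In Col-0 ALC was called with only the groups compared (limma adjusted p = 0.0218). In whole seeds, fewer cells of a type and less RNA per cell cannot be told apart, and the part of tissue makeup in the CYP78A9 result was not tested.

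Arrays of a group correlated at 0.993 to 0.997. The 3' minus 5' signal of the actin controls, a measure of RNA quality, was 0.85, 0.43 and -0.28 in C24 at the 3 stages and 1.84, 1.29 and 0.93 in Col-0. For ubiquitin it was 0.94, 0.91 and 0.77 in C24 and 0.88, 0.52 and 0.44 in Col-0, and for GAPDH 0.94, 1.44 and 1.19 in C24 and 0.89, 1.28 and 1.77 in Col-0. The 3 controls thus did not share 1 trend, being lower at later stages for actin and higher for GAPDH. Their part in the CYP78A9 result was not tested.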

How the data were processed

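Transcripts of whole seeds were assayed with an Affymetrix design that holds 22810 probe sets. The authors deposited log2 signals made with RMA, per the submitters' processing notes, with the version not given in the sources used here. Since RMA equalizes the distributions of the arrays, a shift shared by all transcripts is not visible. An array has no read depth, and the number of arrays limits the precision. Without the 64 control probe sets, 22746 entered the test, of which 13513 have 1 listed gene, 503 have several and 8730 are not listed and stay unnamed.

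All 18 arrays entered 1 limma fit (version 3.58.1, R 4.3.3) of 6 group means, which has 12 residual degrees of freedom and 8.331 from the eBayes prior, with Benjamini-Hochberg adjustment over all 22746. Gene names came from the platform table and loci and neighbours from the TAIR10.1 gene table. P450 genes were those with a symbol of CYP and digits, less the cyclophilins CYP59 and CYP71. Tests of the accession differences of CYP78A9 were planned, but their p-values are not given, since the choice of the gene used the same Col-0 arrays. The members, lists and tests were chosen with earlier results of these data known. Named genes are CYP78A9, those of its 5 neighbours on each side that have a listed probe set, up to 2 called members per list at either end of the whole-course change (else that with the smallest p), the 10 genes most like CYP78A9 and those ranked next to it, 5 above per change. Alternatives were scaling to reference genes, repeated quantile normalization, a replicate block, leaving out each replicate, a filter on low values, only the groups compared, array weights and ranking by moderated t.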

Additional observations from a re-analysis of the deposited data

Results flagged for a closer look

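The accession difference of CYP78A9 turned round between stages without overlap of the pools. The difference at 10-11 d minus that at 8-9 d was -2.67, and the difference at 12-13 d minus that at 8-9 d was -2.43. The change between stages was not tested.

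Among the other genes named, the change from 8-9 to 12-13 d differed between C24 and Col-0 in the limma interaction, given here as C24 minus Col-0. It was 0.717 for the neighbour AT3G61870 (adjusted p = 0.00369) and -0.476 for AT3G02280, listed as a possible electron donor (adjusted p = 0.0465). It was 0.661 for the P450 gene CYP71B34 (adjusted p = 0.0171). Among markers it was -1.73 for AT1G03890, a storage protein locus (adjusted p = 0.0237), 1.54 for the seed coat gene BAN (adjusted p = 0.000238) and 2.09 for the seed coat locus AT3G50990 (adjusted p = 1.94e-06). The Col-0 pools of AT1G03890 at 8-9 d spread widely, with a mean of 9.33, an SD of 1.20 and a lowest pool of 7.96. Its means at 12-13 d, 13.61 in C24 and 13.51 in Col-0, were above the 99th percentile of signals, where RMA compresses differences. The reference gene GAPC2 gave 0.552 (adjusted p = 0.00868), and it is 1 of the 7 genes used for scaling.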

How the results depend on the processing

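The accession differences of CYP78A9 kept their direction in all 12 alternatives at each stage, which reuse the arrays that led to the choice of the gene. Most of these could not have turned it round. Since the pools did not overlap, leaving out 1 replicate or weighting the arrays keeps the direction. The replicate block, the filter and the fit of only the groups compared leave the group means of CYP78A9 unchanged. Leaving out 1 replicate gave 0.80 to 0.95 at 8-9 d, -2.02 to -1.62 at 10-11 d and -1.59 to -1.54 at 12-13 d, and the other alternatives gave 0.82 to 0.86, -1.85 to -1.79 and -1.73 to -1.43. With the replicate block these differences stay at 0.86, -1.81 and -1.57 by design, since every group holds the same replicate numbers. With it 4455, 4093 and 5095 probe sets were called at the 3 stages, against 4418, 4074 and 5008 without it. Replicate numbers did not pair the samples: same-numbered arrays had deviations that correlated at -0.16 to 0.24, and 10 of 45 pairs were over 0.1.

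The whole-course change of CYP78A9 was 8.21 in Col-0 with scaling to the reference genes, against 8.03, and 5.68 in C24 with quantile normalization repeated, against 5.60. Its ranks stayed within 1.5 times the given rank, between 7 and 11 in Col-0 and 31 and 46 in C24 over the whole course. The first-step difference between the accessions lay between -2.88 and -2.48. The filter on low values, which keeps probe sets with a mean signal at or above the median, removed most of the other P450 genes. Of those kept, 4 were called higher over the whole course in each accession. The share called higher among all probe sets kept is not given here, so nothing is read from this count. The rise of IKU1 in Col-0 lost its call without replicate 1 of Col-0 at 8-9 d, without replicate 1 or 2 at 12-13 d, or with only the groups compared. That of AT3G11580 in C24 lost its call without replicate 2 of C24 at 8-9 d or with quantile normalization repeated. Of the 10 genes most like CYP78A9, 9 stood among the 10 over the 18 arrays and 0 by correlation over the 6 group means, alternatives chosen after seeing the data. The low Col-0 signal at 8-9 d (4.65, against 5.51 in C24) may limit the size of the first step in Col-0, which was not tested.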
